A study of Mus musculus with 4 samples.

Results

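Cdk5 is a cyclin-dependent kinase that works mainly in neurons that have left the cell cycle, where it acts on the cytoskeleton, on synapses and on cell migration. It is not switched on by a cyclin in the usual way but by p35, encoded by Cdk5r1, or by p39, encoded by Cdk5r2, and the protease calpain can cut p35 into the longer-lived fragment p25. Around this core stand proteins first found as binders of the kinase or of its activators (Cdk5rap1, Cdk5rap2, Cdk5rap3 and Cables1), its microtubule substrates Nde1 and Ndel1, and Dab1, the adaptor of the reelin receptors. The transcripts of these 10 genes were followed on microarrays after knockdown of Men1, which encodes menin, a scaffold protein of histone methyltransferase complexes. The genes were taken by name from the array annotation, 10 of 24171 genes with a symbol, and are read by 19 of the 44170 targets on the array. Each of the 19 targets is a summary of 3 probes.

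RNA was measured in cells labelled Neuro2a (N2a), a mouse neuroblastoma line, on 4 single-colour arrays. Cells of the Men1 siRNA group (2 arrays) were transfected with an siRNA against Men1, and those of the scramble siRNA group (2 arrays) with a scramble siRNA. All were grown in the same serum-containing medium, and the labels give neither the time after transfection nor whether replicates were separate cultures, so the p-values rest on a spread between arrays that can be purely technical. Values are intensities on a linear scale. An intensity of 100 is used here as the level well above background, since the 20620 targets in the authors' value table are those, and no others, that reached it on all 4 arrays.

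Markers of sympathetic neuroblasts were uneven. The granin genes Chga and Chgb were bright, Chga at 6539 and 5266 with Men1 siRNA and 3178 and 4484 with scramble siRNA, and Chgb at 5781 and 5126 with Men1 siRNA and 3177 and 3542 with scramble siRNA. Th, the rate-limiting enzyme of catecholamine synthesis, was close to 100, at 141.6 and 112.8 with Men1 siRNA and 95.01 and 128.9 with scramble siRNA. Genes of forebrain neurons were bright, with Slc17a7, a vesicular glutamate transporter, at 4525 and 5589 with Men1 siRNA and 2072 and 3756 with scramble siRNA. Epithelial and fibroblast genes were bright with scramble siRNA, and their values are given beside the results below. In such bulk RNA, fewer cells of a type and less RNA per cell cannot be told apart.

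The targeted gene came out lower under the label that names it. Men1 (gene ID 17283, chromosome 19, 6335113 to 6340885 on MM9) read 2764 and 4109 with Men1 siRNA, against 6985 and 6222 with scramble siRNA, at the brighter of its 2 targets. On the log2 scale this was −0.97 ± 0.35 (SE, n = 2 each), short of the adjusted threshold of 0.05 (limma, adjusted p = 0.314). The other target gave −0.19.

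Of the 10 genes, 0 passed in limma, in which 0.389% of all genes passed, 0.0372% upwards and 0.352% downwards. An unadjusted p under 0.05 was seen for Cdk5r2 upwards (6.47% of all genes) and for Nde1 downwards (7.74% of all genes), 2 of 10 in all beside 14.2% of all genes. The arrays of the groups did not overlap for 6 of the 10, where 47.5% of all genes did not overlap. Of these, 4 were higher with Men1 siRNA (25.8% of all genes) and 2 were lower (21.7% of all genes). The median log2 change of the 10 was 0.24, beside 0.06 for all genes. With Cdk5r1 taken from the authors' value table, where its direction is the opposite, 3 genes were higher and 3 lower without overlap, and the median was 0.11. Among the 19 targets 0 passed in a limma fit across all targets (0.34% of all targets passed), and 5 had an unadjusted p under 0.05 (13.6% of all targets). Between groups 13 did not overlap (46.6% of all targets). The 3 Nde1 targets span nearly the same region, as do the 3 Cdk5r1 targets, so the target counts are not of independent measurements. In the per-array files the kinase and both activators read higher with Men1 siRNA, while Nde1, Cdk5rap2 and a splice-variant exon of Dab1 read lower.

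**Figure D1:**
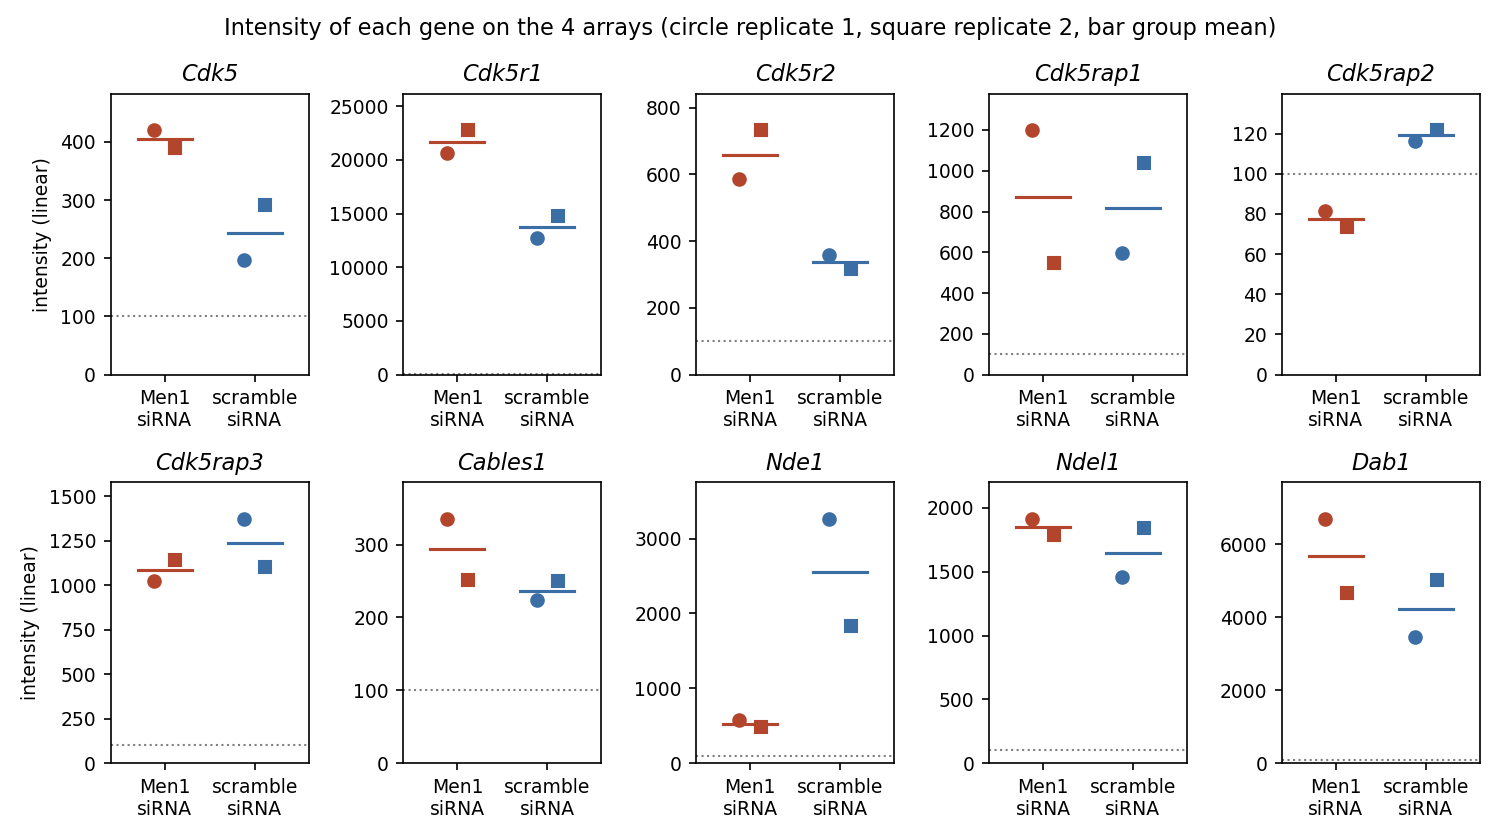
Intensity (linear scale) of the target that stands for each gene on the Men1 siRNA arrays (red) and the scramble siRNA arrays (blue), with circles for replicate 1, squares for replicate 2, bars for the group mean and a dotted line at 100. Cdk5, Cdk5r1 and Cdk5r2 stand higher on both Men1 siRNA arrays in these per-array files, and Nde1 stands near 500 on the Men1 siRNA arrays against 1837 and 3267 on the scramble siRNA arrays.

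Cdk5 itself (gene ID 12568, chromosome 5, 23924058 to 23929322 on MM9) has a single target. It read 420.1 and 390.2 with Men1 siRNA, against 196.5 and 290.9 with scramble siRNA. Both Men1 siRNA arrays lay above both scramble siRNA arrays, and the gap between the scramble siRNA replicates was 0.57 on the log2 scale. The log2 change was 0.76 ± 0.35 (SE, n = 2 each), a ratio of 1.69, and did not pass (limma adjusted p = 0.400). Its 95% interval ran from −0.11 to 1.63. Without scramble siRNA replicate 1 the change was 0.48.

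Cdk5r2, which encodes p39, the less studied activator of adult neurons, had the largest change among Cdk5, Cdk5r1 and Cdk5r2. It (gene ID 12570, chromosome 1, 74901671 to 74902779 on MM9) read 584.7 and 732.4 with Men1 siRNA, against 358.3 and 317.1 with scramble siRNA. The groups did not overlap, and the replicates of each group lay within 0.32 of each other on the log2 scale. The log2 change of 0.96 ± 0.32 (SE, n = 2 each), a ratio of 1.94, did not pass either (limma adjusted p = 0.291). A larger absolute change was seen in 16.0% of all genes.

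Cdk5r1, which encodes p35, was measured by 3 targets on chromosome 11 (gene ID 12569). At the target that stands for the gene (80290555 to 80294035 on MM9) the per-array files gave 20604 and 22773 with Men1 siRNA, against 12725 and 14798 with scramble siRNA. The second target gave 6357 and 6769 with Men1 siRNA, against 3949.7 and 4473 with scramble siRNA. The third gave 5145 and 5443 with Men1 siRNA, against 2814 and 4389.5 with scramble siRNA. All 3 targets were higher on both Men1 siRNA arrays, and they cover nearly the same transcript, so they are not independent measurements. The log2 changes were 0.66, 0.64 and 0.59, with an SE of 0.31 for the first in the fit across genes (n = 2 each), and the gene did not pass (limma adjusted p = 0.414). A larger absolute change was seen in 30.7% of all genes.

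In the authors' value table for the series Cdk5r1 has the opposite direction. For the same 3 targets, its entries under Men1 siRNA are 14798 and 12725, 4473 and 3949.7, and 4389.5 and 2814. Its entries under scramble siRNA are 20604 and 22773, 6357 and 6769, and 5145 and 5443. Each entry equals a per-array value of the other group within a relative tolerance of 1e-04. The other 20617 of the 20620 targets in the table equal the per-array values of their own group, with the columns of the 2 scramble siRNA replicates exchanged. Read from the value table, the log2 change of Cdk5r1 was −0.66 ± 0.27 (n = 2 each, SE; adjusted p = 0.212 in limma over 12701 genes). Cdk5 and Cdk5r2 kept their log2 changes of 0.76 and 0.96 in the value table. Which deposited source is right for Cdk5r1 cannot be told from the files, so its direction is not settled.

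**Figure D2:**
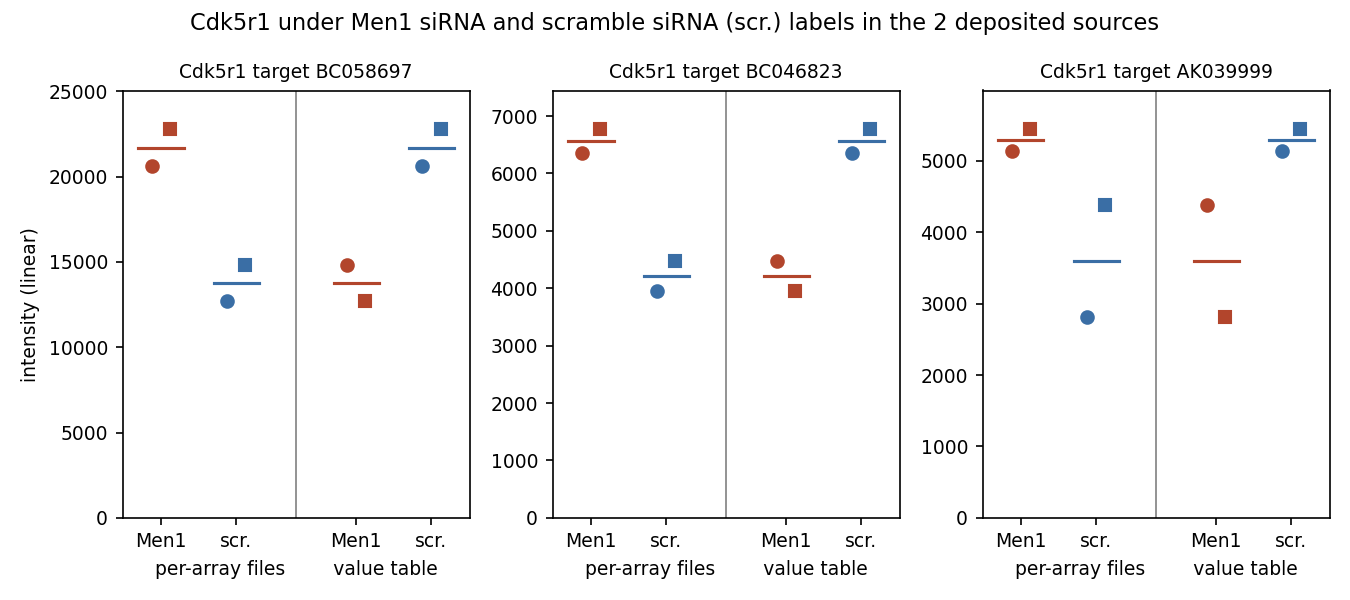
Intensity (linear scale) of the 3 Cdk5r1 targets under the labels Men1 siRNA (red) and scramble siRNA (blue, scr.), left of the line from the per-array files and right of it from the value table, with circles for replicate 1, squares for replicate 2 and bars for the mean. The same 4 numbers appear on each side of a panel, with the groups exchanged: 20604 and 22773 stand under Men1 siRNA on the left and under scramble siRNA on the right of the first panel.

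Genes whose pattern over the 4 arrays was most like that of Cdk5r1 in the per-array files were sought among 10944 genes that reached 100 on all arrays. Atp6v0e2, a subunit of the vacuolar proton pump, came closest, with a root mean square difference of 0.019 on the log2 scale. It read 6797 and 7719.8 with Men1 siRNA, against 4196 and 5006 with scramble siRNA. Ufc1, the conjugating enzyme of the ubiquitin-like modifier UFM1, followed at 0.020, and Kcnc4, a voltage-gated potassium channel gene, at 0.026. These 3 genes had log2 changes of 0.66, 0.68 and 0.64 in the per-array files and the same values in the value table. Their likeness follows from how they were chosen, and only the Cdk5r1 targets differ between the sources. The 3 genes therefore do not bear on the direction of Cdk5r1.

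Neuron markers read higher on the Men1 siRNA arrays, as Cdk5 and Cdk5r2 did. All 10 measured neuron markers had a positive change, with a median of 0.51 and 0 past the threshold in limma, and their summed intensity was 115925 and 117037 with Men1 siRNA, against 79964 and 98597 with scramble siRNA. None of them lay under 100 on all arrays. Among them the synaptic genes Syt1 and Snap25 had 0.84 and 0.82, and the RNA-binding protein gene Elavl3 had 0.74. Markers of forebrain neurons had positive changes for 8 of 8 measured, with a median of 0.66 and a summed intensity of 25508 and 23455 with Men1 siRNA, against 12669 and 20097 with scramble siRNA. The part of these markers in the values of Cdk5, Cdk5r1 and Cdk5r2 was not tested.

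Of the genes of calpain, which cuts p35 into p25, Capn1 read lower with Men1 siRNA without passing, as did Cast, the gene of its inhibitor. The other calpain genes Capn2 and Capns1 had smaller changes of −0.35 and −0.32, and Capns1 overlapped between groups. Capn1, the catalytic subunit of mu-calpain, read 554.5 and 1026 with Men1 siRNA, against 3885 and 2603 with scramble siRNA, a log2 change of −2.08 ± 0.44 (n = 2 each, SE; adjusted p = 0.152 in limma). Its other 2 targets had −3.08 and −2.41. Cast, which encodes the calpain inhibitor calpastatin, read 689.3 and 724.1 with Men1 siRNA, against 2250.4 and 1226 with scramble siRNA, a log2 change of −1.23 (adjusted p = 0.280), and its other 3 targets lay between −1.99 and −1.28. Among the further genes that act on Cdk5 or resemble it, Cdkn1b, which encodes the inhibitor p27, had 1.07 and Ccni, which encodes cyclin I, a binder of Cdk5, had 0.76. The other Cdkn1b target had 0.49. Of the 14 measured genes of this list 0 passed in limma, 8 were positive, and the median was 0.11. An unadjusted p under 0.05 in limma was seen for 1 upwards (6.47% of all genes) and 2 downwards (7.74% of all genes).

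Neuronal substrates of Cdk5 mostly read higher with Men1 siRNA. Of 18 measured, 17 had a positive change and 15 were higher without overlap between groups, where 25.8% of all genes were higher without overlap. The median log2 change was 0.58, beside 0.06 for all genes. In limma 0 passed, and 2 had an unadjusted p under 0.05 upwards (6.47% of all genes). Ppp1r1a, an inhibitor of protein phosphatase, read 1373 and 1424 with Men1 siRNA, against 427.3 and 901.4 with scramble siRNA (log2 change 1.17). The synaptic vesicle recycling genes Synj1 and Amph had 0.82 and 0.74, and Map1b, a microtubule-associated protein, had 0.72. Trio, a guanine nucleotide exchange factor, was the exception at −0.02. Neuron markers, whose median was 0.51, also read higher with Men1 siRNA, and their part in this was not tested.

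**Figure D3:**
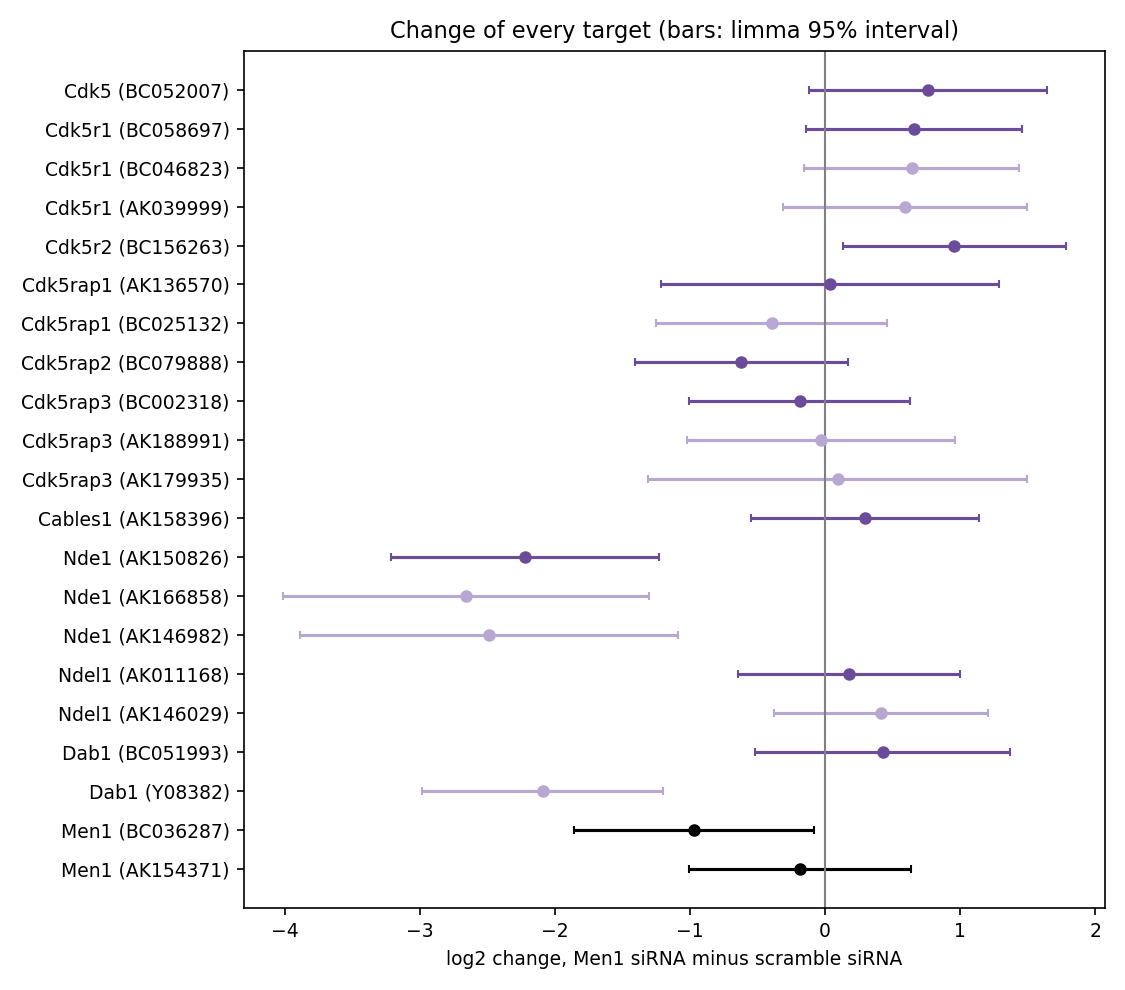
Log2 change (Men1 siRNA minus scramble siRNA) of each of the 19 targets and of both Men1 targets (black), with 95% intervals from limma across all targets. Dark purple marks the target that stands for its gene and pale purple the other targets. The 3 Nde1 targets lie between −2.65 and −2.22, and the 2 Dab1 targets lie on opposite sides of 0.

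Nde1 had the largest change of the 10 genes. Nde1 binds LIS1 and dynein at the centrosome and the spindle and is needed for division of neural progenitors. At the target that stands for it (gene ID 67203, chromosome 16, 14163398 to 14192921 on MM9) it read 573.6 and 481.7 with Men1 siRNA, against 3267 and 1837 with scramble siRNA. At the second target it read 524.5 and 226.7 with Men1 siRNA, against 3067 and 1536 with scramble siRNA. At the third it read 214.9 and 80.7 with Men1 siRNA, against 990.1 and 552.5 with scramble siRNA. Every Men1 siRNA value lay below every scramble siRNA value of its target, and the 3 targets start at the same base, so they may share sequence. The log2 change was −2.22 ± 0.40 (SE, n = 2 each), which is 4.66 times lower with Men1 siRNA, with a 95% interval from −3.21 to −1.23. It did not pass over all genes in limma (adjusted p = 0.112), and 1.73% of all genes had a larger absolute change. Of 17 alternative settings it passed in 3. With targets under 100 on any array left out it passed (limma adjusted p = 0.0202 over 12701 genes), as in the value table, which holds the same targets. It also passed with a variance prior that follows intensity (limma adjusted p = 0.00507).

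Ndel1, the paralog of Nde1 that works in migrating and mature neurons, had no such change. Its target that stands for the gene (gene ID 83431, chromosome 11, 68642817 to 68666555 on MM9) read 1916 and 1791 with Men1 siRNA, against 1457 and 1839.5 with scramble siRNA, so the groups overlapped. The log2 change was 0.18 ± 0.32 (n = 2 each, SE; adjusted p = 0.832 in limma), with a 95% interval from −0.62 to 0.97. The other target had 0.41 without overlap. The log2 change of Nde1 minus that of Ndel1 was −2.40, and the exact permutation test gave its smallest possible two-sided p for 2 arrays against 2, 0.33.

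The upstream sequences of this pair and of Cdk5r2 are shown because the paralogs Nde1 and Ndel1 differed and Cdk5r2 had the largest change among the kinase and its activators. They are the 250 bases before the RefSeq gene start on build GRCm38.p6, 5′ to 3′ on the gene's strand, with CCAAT boxes on either strand (CCAAT or ATTGG) in capitals. Nde1 lies at chr16:14163025-14163274 on the plus strand, Ndel1 at chr11:68853136-68853385 on the minus strand and Cdk5r2 at chr1:74854779-74855028 on the plus strand.
Nde1: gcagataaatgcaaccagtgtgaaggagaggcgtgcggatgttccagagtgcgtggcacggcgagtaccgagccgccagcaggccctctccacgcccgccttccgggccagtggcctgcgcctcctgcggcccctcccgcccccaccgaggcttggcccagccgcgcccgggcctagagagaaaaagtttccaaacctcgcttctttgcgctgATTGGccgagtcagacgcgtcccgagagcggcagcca
Ndel1: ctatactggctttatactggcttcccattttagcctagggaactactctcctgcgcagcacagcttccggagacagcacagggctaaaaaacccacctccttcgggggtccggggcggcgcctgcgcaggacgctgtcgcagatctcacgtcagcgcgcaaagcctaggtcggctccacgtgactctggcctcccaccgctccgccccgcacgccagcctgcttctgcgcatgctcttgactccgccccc
Cdk5r2: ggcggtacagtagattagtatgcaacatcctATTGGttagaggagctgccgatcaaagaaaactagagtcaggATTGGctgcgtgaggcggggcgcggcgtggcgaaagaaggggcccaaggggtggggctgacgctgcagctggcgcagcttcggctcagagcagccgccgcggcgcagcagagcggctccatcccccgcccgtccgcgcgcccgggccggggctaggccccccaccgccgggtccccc
Nde1 held 1 CCAAT box, at position −37 from the gene start, Cdk5r2 held 2, at −219 and −177, and these letters are not in the Ndel1 window. Windows were searched for 7 of the 10 members, and those of Cdk5, Cdk5r1 and Cables1 were not searched. Among the other members searched, the windows of Cdk5rap3 held 4 and 3, those of Dab1 1 and 0, and those of Cdk5rap1 and Cdk5rap2 0. A relation of these boxes to the changes was not tested. At least 1 such match stood in 33.8% and at least 2 in 10.1% of the 32851 RefSeq windows of that length. None of the 3 windows held TTTGAA (cell cycle genes homology region, in 16.0% of windows), GCGGGGGCG (Egr site, 2.57%) or TTTCCCGC (E2F site, 0.895%) on either strand. All 3 were rich in CpG, with 24 CpG dinucleotides and 67.2% GC for Nde1, 20 and 63.6% for Ndel1, and 25 and 68.8% for Cdk5r2, where the median window held 6 and 52.4%.

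Proliferation markers and markers of other cell types stood lower on the same arrays as Nde1. Of 9 measured proliferation markers 9 were negative, with a median log2 change of −1.02 and 0 past the threshold in limma. At an unadjusted p under 0.05 in limma 6 were lower, beside 7.74% of all genes. The 9 summed to 10663 and 10838 with Men1 siRNA, against 20717 and 20708 with scramble siRNA. Of these sums, Pcna alone gave 7667 and 7723 with Men1 siRNA, against 14127 and 14353 with scramble siRNA. The helicase gene Mcm2 had −1.28, the topoisomerase gene Top2a −1.41 and Mki67 −1.13, all smaller in size than the change of Nde1. Of 9 epithelial markers 8 were negative and 5 fell past the threshold, where 0.352% of all genes did. The 9 summed to 1153 and 2379 with Men1 siRNA, against 48215 and 30236 with scramble siRNA. Of these sums, Sprr2f alone gave 72.8 and 190.7 with Men1 siRNA, against 23802 and 14082 with scramble siRNA. The 5 were Sprr2f, Krt8, Cdh1, Krt18 and Cldn3, and the first 3 had −7.28, −3.67 and −4.56. Of 10 fibroblast markers 10 were negative and 3 fell past the threshold (Col1a1, Col6a1 and Col1a2), where 0.352% of all genes did. The 10 summed to 10857 and 11423 with Men1 siRNA, against 51949 and 50192 with scramble siRNA. Of 8 endothelial markers 8 were negative and 0 passed, with 6 lower at an unadjusted p under 0.05 in limma (7.74% of all genes). Cdh5 had −3.18, Kdr had −2.01 and Flt1 was at least 4.79-fold lower with Men1 siRNA. The 8 summed to 1956 and 1935 with Men1 siRNA, against 9115 and 5847 with scramble siRNA. None of these epithelial, fibroblast or endothelial markers lay under 100 on all 4 arrays. With any of the 4 arrays left out, 0 of all genes passed in limma (2105 to 3357 at an unadjusted p under 0.05), these epithelial and fibroblast genes included. Glial and immune markers had 0 past the threshold, with medians of 0.22 and −0.04 and 7 of 10 and 4 of 8 positive. The part of these cell types, or of cell division, in the values of Nde1 and Capn1 was not tested. The closest patterns to Nde1 over the 4 arrays were those of Etfbkmt, a mitochondrial lysine methyltransferase gene, Lrig3, a leucine-rich repeat membrane protein gene, and Rnf213, a ubiquitin ligase gene, with root mean square differences of 0.086, 0.091 and 0.098.

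**Figure D4:**
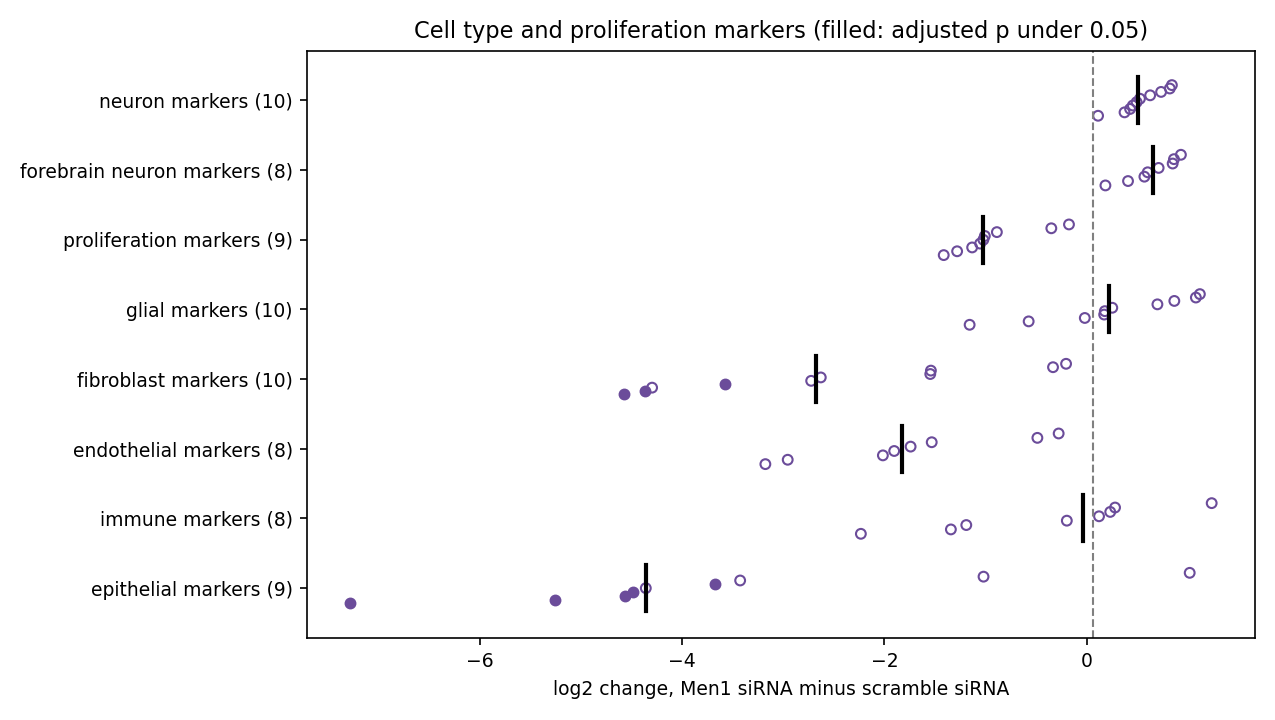
Log2 change (Men1 siRNA minus scramble siRNA) of every measured gene of 8 marker lists, with the number of genes in brackets, black bars for list medians, filled points for an adjusted p under 0.05 and a dashed line at the median of all genes, 0.06. Neuron and forebrain neuron markers lie right of 0, and proliferation, endothelial and fibroblast markers lie left of it.

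Partners of Nde1 and Ndel1 on dynein did not share the change of Nde1. Pafah1b1, which encodes LIS1, had 0.08. Of 15 measured genes of LIS1, dynein and dynactin 0 passed in limma, 0 had an unadjusted p under 0.05, 10 were positive, and the median was 0.17. Katna1, a microtubule-severing subunit, read 257.2 and 133.6 with Men1 siRNA, against 349.4 and 389.9 with scramble siRNA (log2 change −0.99), and the dynactin and dynein subunit genes Dctn2, Dync1i1 and Dync1li1 had 0.64, 0.51 and 0.46. The weaker target of Dync1li1 had −0.50 with every array under 100.

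Dab1, which carries the reelin signal from its receptors into migrating neurons, gave opposite results at its 2 targets. At the brighter target (gene ID 13131, chromosome 4, 103292269 to 104352987 on MM9) it read 6698 and 4669 with Men1 siRNA, against 3444 and 5029 with scramble siRNA. The groups overlapped there, and the log2 change of 0.43 ± 0.38 (SE, n = 2 each) did not pass (limma adjusted p = 0.650). The other target, annotated as an exon of a splice variant, spans 191 bases at 104386226 to 104386416, beyond the end of the brighter target's span. It read 63.1 and 83.6 with Men1 siRNA, against 264.7 and 361.2 with scramble siRNA. Both Men1 siRNA arrays were under 100 there, so the exon was at least 3.09-fold lower with Men1 siRNA, without passing in the fit across all targets (limma adjusted p = 0.103). The change of the exon target minus that of the brighter target was −2.52 (exact permutation p = 0.33, two-sided, the smallest possible).

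Genes of the reelin pathway read mostly higher, with 11 of 14 measured positive (54.5% of all genes) and a median of 0.28. In limma 0 passed the threshold and 3 had an unadjusted p under 0.05 upwards (6.47% of all genes). Of the 14, 6 were higher without overlap between groups (25.8% of all genes) and 8 overlapped. Neuron markers, 10 of 10 positive with a median of 0.51, also read higher with Men1 siRNA, and their part in this was not tested. Vldlr, a reelin receptor, read 2878 and 3615 with Men1 siRNA, against 1520.4 and 1309.8 with scramble siRNA, a log2 change of 1.19 ± 0.32 (n = 2 each, SE; adjusted p = 0.221 in limma), with 0.36 at its other target. Reln, which encodes reelin, read 2448 and 3448 with Men1 siRNA, against 1559 and 1536 with scramble siRNA, and had a log2 change of 0.91. Of its 8 targets 2 had a negative change, and 1 of these, at −1.08, lay under 100 on 3 of 4 arrays. The other negative target, at −0.23, lay under 100 on every array. So did the positive targets at 0.45, 0.16 and 0.20. Rapgef1 and Crkl, the exchange factor and adaptor downstream of Dab1, had 0.96 and 0.82. The tyrosine kinase gene Fyn, which phosphorylates Dab1, had 0.15.

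Cdk5rap1, Cdk5rap3 and Cables1 gave small or unsteady differences, and Cdk5rap2 read lower with Men1 siRNA at dim values. Cdk5rap1, a methylthiotransferase that modifies mitochondrial transfer RNA, read 1199 and 547.7 with Men1 siRNA, against 598.1 and 1041 with scramble siRNA, at its brighter target (chromosome 2, 154186986 to 154198455 on MM9). The replicates of a group differed by 1.13 and 0.80 on the log2 scale while the groups differed by 0.04 (SE 0.51, n = 2 each; limma adjusted p = 0.981). Its other target read 204.6 and 171.0 with Men1 siRNA, against 284.3 and 212.7 with scramble siRNA, a log2 change of −0.39. The sign of Cdk5rap1 therefore differs between its targets.

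Cdk5rap2, a centrosome protein that recruits the gamma-tubulin ring and is mutated in human primary microcephaly, was dim. It read 81.6 and 73.5 with Men1 siRNA, against 116.4 and 121.7 with scramble siRNA (chromosome 4, 69884057 to 70071401 on MM9). Both Men1 siRNA arrays were under 100, so the gene was at least 1.19-fold lower without passing (limma adjusted p = 0.428). Of 16 measured genes of the centrosome and of microcephaly 0 passed in limma, 8 were positive and 8 negative, and the median was −0.01. The mitotic kinase gene Aurka had −1.11 at its standing target and 0.08 at the other, Pcnt, which encodes the centrosome scaffold pericentrin, had −0.59, Mcph1 −0.39 and the gamma-tubulin complex gene Tubgcp2 0.45. The other targets of Pcnt and Mcph1 had −0.05 and 0.18, and those of Tubgcp2 had 0.05 and 0.39.

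Cdk5rap3, a cofactor of the UFM1 ligase, did not separate the groups at any of its 3 targets. The brightest (chromosome 11, 96769099 to 96777795 on MM9) read 1027 and 1139 with Men1 siRNA, against 1374 and 1103 with scramble siRNA, a log2 change of −0.19 ± 0.32 (n = 2 each, SE; adjusted p = 0.823 in limma). The other targets had −0.03 and 0.09. Of the 7 genes of UFM1 conjugation 0 passed in limma, 0 had an unadjusted p under 0.05, 4 were positive, and the median was 0.03. Ufc1 had 0.68 and Ufl1, the ligase that Cdk5rap3 binds, −0.54, while Ufsp2, the protease that matures UFM1, had 0.31 and Ufm1 itself −0.30.

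Cables1, an adaptor that links Cdk5 to the tyrosine kinase Abl, read 335.5 and 251.4 with Men1 siRNA, against 223.4 and 250.3 with scramble siRNA (chromosome 18, 11997782 to 12103446 on MM9). The lower Men1 siRNA array stood only just above the higher scramble siRNA array, and the log2 change was 0.30 ± 0.33 (n = 2 each, SE; adjusted p = 0.719 in limma). Its relatives and partners, listed with Cdkal1, the homolog of Cdk5rap1, had a median of −0.69 over 6 genes, with 5 negative, 3 lower at an unadjusted p under 0.05 (7.74% of all genes) and 0 past the threshold in limma. Proliferation markers, 9 of 9 negative with a median of −1.02, were lower on the same arrays, and their part in this was not tested. Cdk2, a cell cycle kinase, had −1.74, Abl1 −1.17, the Cdk-inhibiting kinase gene Wee1 −0.88 and Cdkal1 −0.51. The other Abl1 target had 0.83, and Cdk3 lay under 100 on all arrays. Further Cdkal1 targets had −0.68 and 0.19, the latter with every array under 100.

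**Figure D5:**
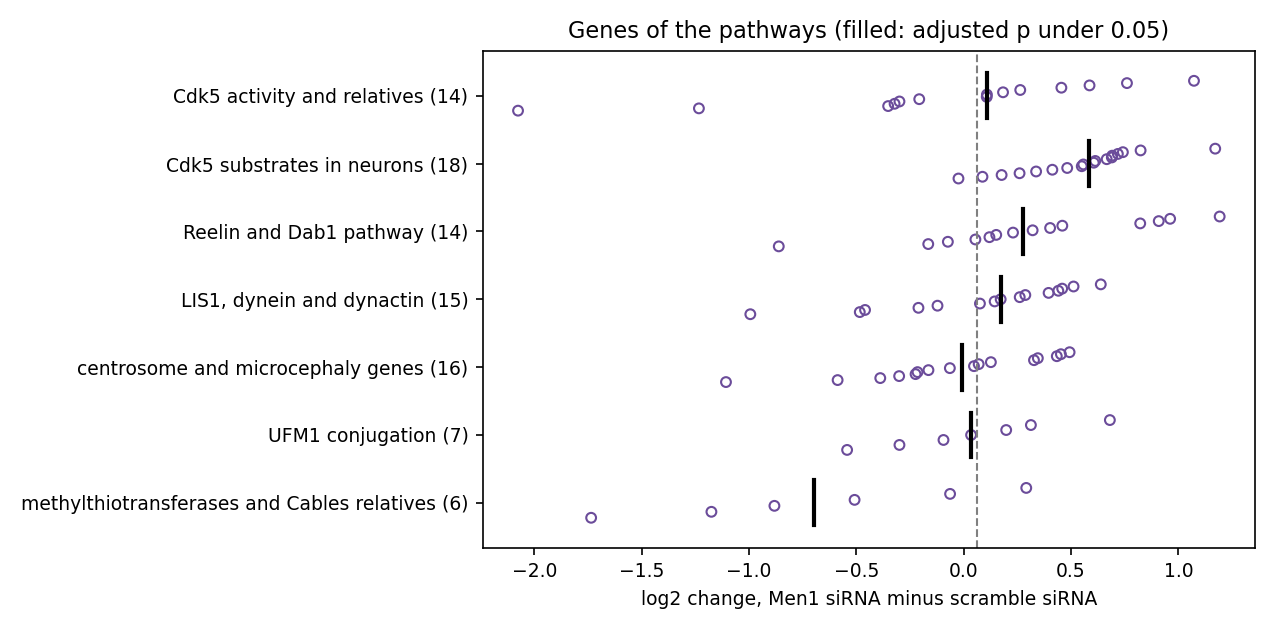
Log2 change (Men1 siRNA minus scramble siRNA) of every measured gene of the 7 pathway lists, with the number of genes in brackets, black bars for list medians, open points for genes that did not pass and a dashed line at the median of all genes, 0.06. The substrates of Cdk5 lie right of the dashed line except Trio, and Capn1 at −2.08 is the lowest point of the first list.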

How the data were processed

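The authors deposited 1 file per array holding linear intensities per target, made by RMA (robust multi-array averaging) per the file headers, and a value table of these intensities. Background correction is not given in the sources used here, and the labelling protocol in the labels is NimbleGen's whereas the series text names an Agilent array. Random probes read 42.8 to 52.3. Symbols were updated through gene ID with RefSeq tables (GRCm38.p6), which matched 21583 of 24204 IDs. Log2 intensities were fitted without further normalization in R 4.3.3 by limma 3.58.1 (lmFit, then eBayes) with group as the only term, Benjamini-Hochberg adjustment over 24171 genes and a threshold of 0.05. The target with the highest mean stood for a gene, and a second fit took all 44170 targets. A fold is "at least" where a group had both its arrays under 100, set against 100 or the own value, whichever was higher. The fit was tested on simulated data. The members and lists were chosen with earlier results of these data known.

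Named were Men1, all members, up to 4 genes per pathway list and 3 per marker list with the smallest p, and the 3 nearest patterns to Cdk5r1 and Nde1. Genes named outside that rule (Th, Chga, Trio, Pafah1b1, Fyn, Cdk3, Krt18, Cldn3, Capn2, Capns1, Pcna) were chosen after their values were seen. The same-numbered replicates deviated with a correlation of −0.17 across genes. The numbers of the value table, where the scramble siRNA columns are exchanged, are the crossed ones. The labels do not say what a replicate number stands for, so the arrays were not taken as pairs. The image name inside the file labelled Men1 siRNA replicate 1 carries the number 2. Summaries over the list of sympathoadrenal markers are not reported here. The number of arrays limits the precision. Tables and figures were made with matplotlib 3.10.9, numpy 2.4.6 and pandas 2.3.3 under Python 3.11.15.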

Additional observations from a re-analysis of the deposited data

How the results depend on the processing

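Of 168 values of the 10 genes under 17 alternatives, 159 kept their direction and their side of the threshold, 6 reversed and 3 came to pass. The value table and the targets at 100 or more hold the same targets, so these alternatives are not independent. Cdk5r1 reversed in the value table (−0.66), and Dab1 as the mean of its targets (−0.83). Cdk5rap1 reversed under cyclic loess normalization (−0.018), as the mean of its targets (−0.18) and with arrays left out in turn (−0.53 to 0.60). Nde1 came to pass in the value table and with only targets at 100 or more (−2.22, adjusted p = 0.0202), where fewer genes are tested, and with a trended prior (−2.22, adjusted p = 0.00507); its adjusted p over all alternatives ran up to 0.452. With arrays left out in turn Nde1 ran from −2.64 to −1.81, Cdk5 from 0.48 to 1.04, Cdk5r1 from 0.55 to 0.77 and Cdk5r2 from 0.79 to 1.12. The count of genes past the threshold, 94, was 0 with any array left out (2105 to 3357 at an unadjusted p under 0.05 in limma) and 0 with crossed replicate numbers, those of the value table, as a block, an alternative chosen after seeing the data (3980 at an unadjusted p under 0.05). It was 418 in the value table and with targets at 100 or more, 8 with a floor at 100, 150 with each target on its own, 711 with a trended prior and 252 with a pseudocount of 32. With the replicate number as a block it was 69, and the adjusted p was 0.145 for Nde1 and 0.601 for Cdk5r1. The cause of these shifts was not tested. Of 289 list medians under an alternative, 8 changed sign, all of lists with a median between −0.01 and 0.11.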
